A study of Rattus norvegicus with 8 samples.

Results

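The heat shock proteins and chaperones described here are 10 genes that were taken by name from the deposited transcript table, with FPKM, the abundance of a transcript corrected for its length and for the number of mapped fragments, summed over the transcripts of each gene. All 10 were found among the 12784 gene symbols of the table, and all 10 were among the 12567 genes tested, which averaged 0.5 FPKM or more. They are the small heat shock proteins Hspb1, Hspb6, Hspb7 and Cryab, the HSP70 chaperones and relatives Hspa8, Hspa4 and Hsph1, the HSP90 chaperones Hsp90aa1 and Hsp90ab1, and the cochaperone Bag3. The cells were neonatal rat ventricular cardiomyocytes (NRVCMs), isolated from newborn rats and kept in culture for 24 h before an adenovirus was added for 72 h. In 4 libraries the virus carried HectD3, a ubiquitin ligase, and in 4 control libraries it carried LacZ, a bacterial enzyme, so that both groups had been exposed to an adenovirus and no library came from cells without virus. The methods name Wistar rats and the reporting summary of the study names Sprague Dawley rats, and cardiomyocytes were separated from fibroblasts on a Percoll gradient. The submitters call the 4 samples of a group biological replicates, but separate isolations are not stated, so the p-values rest on the spread between these samples alone, which may be technical.

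Chaperones bind unfolded or partly folded proteins. Small heat shock proteins hold them without using ATP, HSP70 proteins bind and release them in cycles driven by ATP and by J-domain partners, and HSP90 proteins mature kinases, receptors and myosin with the help of cochaperones. The heart muscle cell is rich in these proteins, which guard the sarcomere and the intermediate filaments, and mutations of CRYAB and BAG3 cause cardiomyopathy in humans. Many of the genes are switched on in stress by heat shock factor Hsf1, which binds inverted repeats of a short unit, GAA or its complement TTC, in their promoters.

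The promoters of the members are shown so that the RNA levels can be set beside the matches to these repeats in a short window. RefSeq promoter windows of assembly GRCr8 matched 8 of the 10 members, all but Cryab and Hsp90aa1, and the 250 bases before the start site were searched for GAANNTTC and for TTCNNGAA, each of which reads the same on both strands. At least 1 of these pairs of units lay in 5 of the 8 windows, against 13.6% of 33469 promoter windows of the assembly. Where both motifs overlap by 1 unit they make a run of 3 alternating units, which was found for Hspa8 and Hsph1 and in 0.663% of all windows. No pair of units was found in the windows of Hspb7, Hspa4 and Hsp90ab1. Of the chaperones outside the members that were searched, Hspd1, Hspe1, Hspb8 and Dnajb1 held a pair. Hspa1a, an HSP70 gene that stress induces, held none. The lack of a match in 250 bases therefore does not show that a gene is not a target of Hsf1. In the stretches below, written 5′ to 3′ on the strand of the gene, capitals mark the pairs of units. They lie at chr8:50080291-50080481 on the plus strand for Hspa8, at chr12:10427253-10427354 on the plus strand for Hsph1, at chr12:26432393-26432440 on the minus strand for Hspb1, at chr1:94934123-94934240 on the plus strand for Hspb6 and at chr1:192533318-192533345 on the plus strand for Bag3.
Hspa8: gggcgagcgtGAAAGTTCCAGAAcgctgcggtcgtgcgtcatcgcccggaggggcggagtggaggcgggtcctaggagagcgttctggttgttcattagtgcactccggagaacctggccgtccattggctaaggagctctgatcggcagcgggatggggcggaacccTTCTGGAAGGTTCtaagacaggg
Hsph1: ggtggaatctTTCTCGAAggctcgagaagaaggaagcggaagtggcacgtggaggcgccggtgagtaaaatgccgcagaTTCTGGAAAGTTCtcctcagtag
Hspb1: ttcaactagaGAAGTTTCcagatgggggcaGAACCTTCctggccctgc
Hspb6: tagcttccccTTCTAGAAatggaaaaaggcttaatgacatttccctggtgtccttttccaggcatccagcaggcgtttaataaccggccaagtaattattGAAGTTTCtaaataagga
Bag3: gatgggaccaGAAGTTTCtagccggcca

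A match is a description of the letters and not a bound site. The window of Hspa8 holds a run of 3 units near each end of the stretch, Hsph1 holds 1 such run and 1 pair apart from it, and Hspb1, Hspb6 and Bag3 hold only pairs that stand alone.

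The libraries also differed from each other within the groups. On the first principal component of all tested genes, which held 58.4% of the variance, LacZ 1, LacZ 2 and HectD3 4 lay between -40.8 and -13.4 and the other 5 libraries between 9.01 and 18.8. The virus itself was seen in the overexpressed gene, with Hectd3 at 547, 915, 590 and 161 FPKM in HectD3 1 to 4 and at no more than 7.89 FPKM in the LacZ libraries. HectD3 4 thus had the lowest level of the overexpressed gene in its group. All 12 cardiomyocyte markers on the list used were measured, among them Tnnt2, the cardiac troponin T, at 4787 to 5501 FPKM. The listed markers of fibroblasts summed to between 1776 and 2041 FPKM over the 8 libraries and those of macrophages and leukocytes to between 98.5 and 132 FPKM, with 9 of 10 and 8 of 9 names in the table and no marker of either list at 0 throughout. The table gives FPKM and no counts, so the depth behind each value is unknown.

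The small heat shock protein Cryab was the most abundant of the 10 genes, at a mean of 1100.3 FPKM over the 8 libraries, and Hsph1 was the least abundant, at 32.6 FPKM. Between them came Hspb7 at 735 FPKM, Hsp90ab1 at 652 FPKM, Hspa8 at 634 FPKM, Hspb1 at 545 FPKM, Hspb6 at 240.3 FPKM, Hsp90aa1 at 226 FPKM, Hspa4 at 98.6 FPKM and Bag3 at 96.2 FPKM. Cryab stood 42nd in level among all tested genes, so that a small heat shock protein was among the most abundant messages of these cells. The order of neighbours was not firm everywhere. Hsp90ab1 lay above Hspa8 in 4 of 8 libraries, Hspa4 above Bag3 in 4 of 8 and Hspb6 above Hsp90aa1 in 5 of 8, and in each of these pairs the ranges of the libraries overlapped in both groups. The steps from Hspb1 down to Hspb6, from Hsp90aa1 to Hspa4 and from Bag3 to Hsph1 were clear of any overlap in both groups. Together the 10 genes made up between 0.629% and 0.872% of the FPKM of a library.

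**Figure D1:**
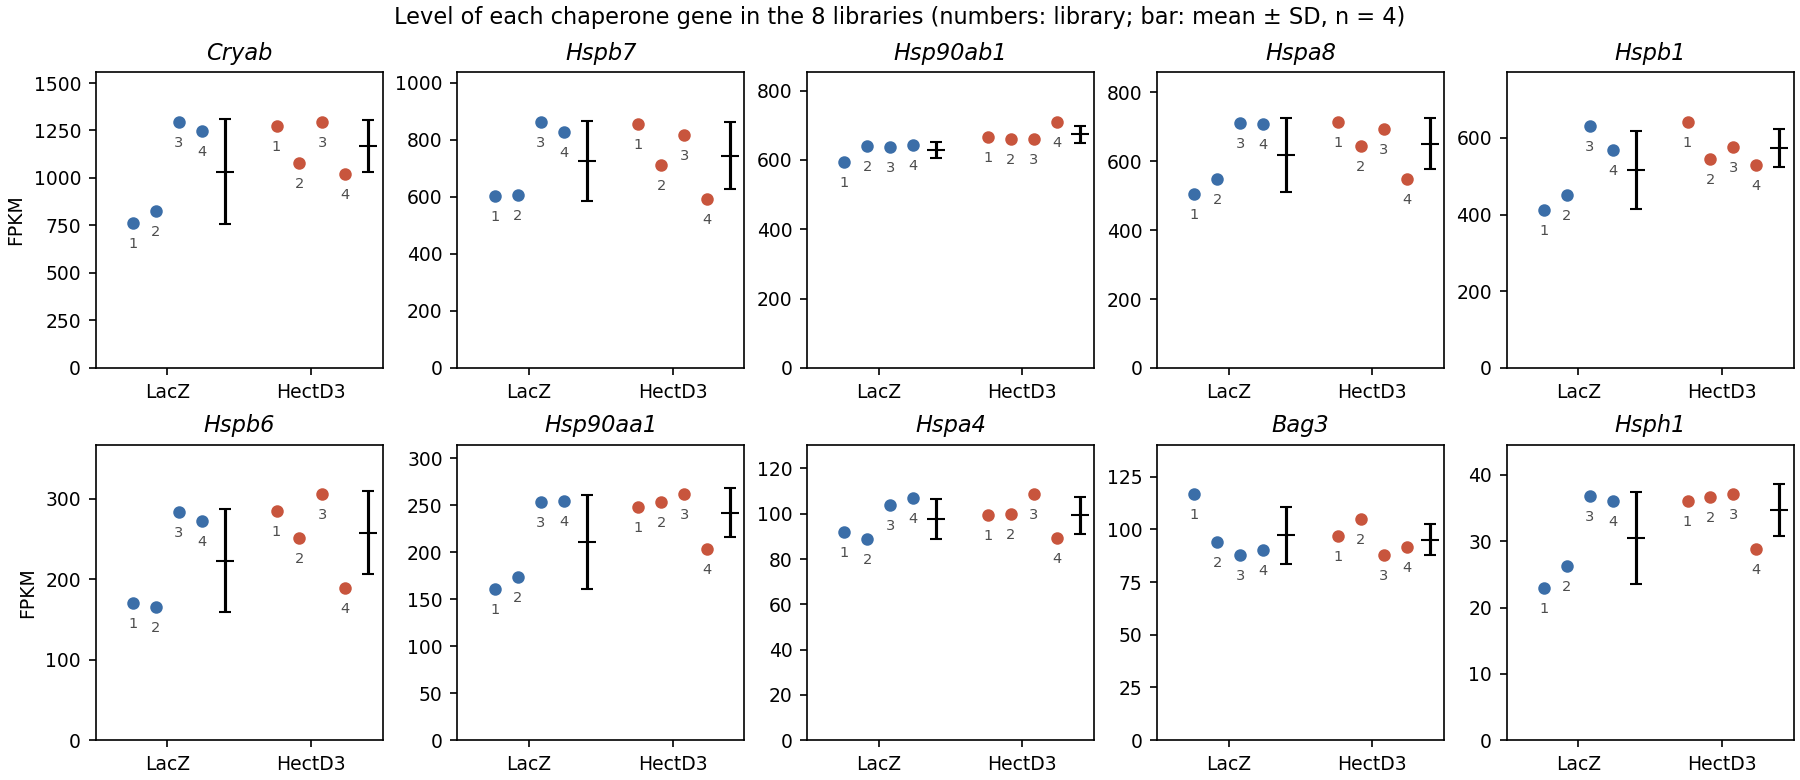
FPKM (vertical axes, each from 0) of the 10 chaperone genes in each of the 4 LacZ and 4 HectD3 libraries, which are numbered, with the mean and SD of each group as a bar. In 8 of the genes LacZ 1, LacZ 2 and HectD3 4 are the lowest of the 8 libraries, while Hsp90ab1 and Bag3 do not follow that order.

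Cryab, or alpha B-crystallin, holds desmin and titin in a soluble form under stress. LacZ 1 to 4 held 763, 828, 1297 and 1245 FPKM, and HectD3 1 to 4 held 1274, 1081, 1294 and 1019 FPKM. LacZ 1 and LacZ 2 were the lowest libraries, HectD3 4 came next, and the groups overlapped. Its log2 fold change, HectD3 minus LacZ, was 0.21 (standard error, SE, 0.18, limma adjusted p = 0.760). In the deposited table Cryab lies on chromosome 8 from 55178289 to 55182545, and Hspb2, another small heat shock protein of muscle, lies 470 bases away on the opposite strand. Hspb2 was at 244 to 383 FPKM in the LacZ libraries and 320.0 to 360 FPKM in the HectD3 libraries, and the ratio of Cryab to Hspb2 stayed between 2.90 and 3.63 over all 8.

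Hspb6, known as Hsp20, is phosphorylated by protein kinase A in the heart and varied most of the 10 within the groups. Its values were 170.0, 165, 284 and 272 FPKM for LacZ 1 to 4, and 285, 251, 306 and 189 FPKM for HectD3 1 to 4. The highest library held 1.85 times the lowest, and LacZ 1, LacZ 2 and HectD3 4 were set apart at 165 to 189 FPKM with the other 5 libraries at 251 to 306 FPKM. The log2 fold change was 0.23 (SE 0.22, limma adjusted p = 0.765).

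Hspb1, or Hsp27, binds actin filaments and ran from 412 to 632 FPKM in the LacZ libraries and from 530.5 to 643 FPKM in the HectD3 libraries. Hspb7, a small heat shock protein of heart and skeletal muscle, ran from 604 to 865 FPKM with LacZ and from 593 to 854 FPKM with HectD3. In both genes the 3 lowest libraries were again LacZ 1, LacZ 2 and HectD3 4. The log2 fold change was 0.17 for Hspb1 (SE 0.14, limma adjusted p = 0.744) and 0.04 for Hspb7 (SE 0.16, limma adjusted p = 0.947). The 4 small heat shock proteins among the members summed to between 1949 and 3078 FPKM with LacZ and between 2331 and 3057 FPKM with HectD3.

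Hspa8, the constitutive HSP70 of the cytosol, was at 504, 548, 709.9 and 709.5 FPKM in LacZ 1 to 4 and at 716, 643, 695 and 549.9 FPKM in HectD3 1 to 4. The groups overlapped, and LacZ 1, LacZ 2 and HectD3 4 were below the other 5 libraries, as in the small heat shock proteins. Its log2 fold change was 0.08 (SE 0.14, limma adjusted p = 0.869). The symbol covers 2 entries of the table with different gene identifiers. Hspa8-202 lies on chromosome 8 from 44990014 to 44993179, while Hspa8-201 lies on chromosome 5 from 99031013 to 99033107. The entry on chromosome 5 held between 10.2% and 11.0% of the summed FPKM in every library. RefSeq, used for names, places Hspa8 on chromosome 8, and reads may be shared between near-identical copies, so the division between these entries is uncertain.

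Hsph1, or Hsp105, and Hspa4 belong to the HSP110 branch, whose members exchange the nucleotide of HSP70. Hsph1 was at 23.0, 26.3, 36.8 and 36.0 FPKM in LacZ 1 to 4 and at 36.0, 36.7, 37.2 and 28.8 FPKM in HectD3 1 to 4. HectD3 1 to 3 and LacZ 3 and 4 lay between 36.0 and 37.2 FPKM, and the 3 other libraries lay between 23.0 and 28.8 FPKM. The log2 fold change was 0.20 (SE 0.16, limma adjusted p = 0.744). Hspa4 was the steadier of the pair, at 88.8 to 107 FPKM with LacZ and 89.1 to 109 FPKM with HectD3, and its log2 fold change was 0.02 (SE 0.09, limma adjusted p = 0.949).

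The 2 HSP90 genes of the cytosol did not vary alike. Hsp90aa1, the form that stress induces, was at 161, 174, 253 and 255 FPKM in LacZ 1 to 4 and at 248, 254, 262 and 204 FPKM in HectD3 1 to 4. It was lowest in LacZ 1, LacZ 2 and HectD3 4, the groups overlapped, and the log2 fold change was 0.22 (SE 0.16, limma adjusted p = 0.732). Hsp90ab1, the constitutive form, was at 594, 639, 638 and 643 FPKM in LacZ 1 to 4 and at 667, 659.9, 659.8 and 711 FPKM in HectD3 1 to 4. HectD3 4, which was low in most of the members, was the highest library for Hsp90ab1. Hsp90aa1 amounted to between 27.1% and 28.7% of Hsp90ab1 in LacZ 1, LacZ 2 and HectD3 4 and to between 37.2% and 39.7% in the other 5 libraries.

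Hsp90ab1 was the 1 member of the 10 in which every HectD3 library lay above every LacZ library, where 5.25% of all tested genes had no overlap of the groups. The gap was narrow, from 643 FPKM in the highest LacZ library to 659.8 FPKM in the lowest HectD3 library, and the groups overlapped once the libraries were rescaled to TPM (each set to the same total), by median ratios or by quantiles. Its log2 fold change was 0.10 (SE 0.06, limma adjusted p = 0.725), and its spread within the groups was lower than that of all but 1.18% of tested genes. The gene lies on chromosome 9 with 2 transcripts in the table. Hsp90ab1-201 was at 499 ± 22.5 FPKM with LacZ and 546 ± 31.7 FPKM with HectD3 (SD, n = 4 each), and Hsp90ab1-202 was at 129.6 ± 15.3 and 128 ± 15.8 FPKM. Hsp90ab1-201 carried between 76.8% and 82.6% of the sum in the 8 libraries. Neither transcript reached an unadjusted p under 0.05, a threshold that 6.81% of the 15437 transcripts tested passed.

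Bag3 joins HSP70 to the small heat shock protein Hspb8 and steers damaged filamin to autophagy at the Z-disc. The LacZ libraries 1 to 4 had 117, 93.9, 87.9 and 90.1 FPKM of it, set against 96.7, 105, 87.9 and 91.5 FPKM in HectD3 1 to 4. LacZ 1 was the highest library and LacZ 3 and HectD3 3 were the lowest, so Bag3 did not share the order of the other members, and the groups overlapped. The log2 fold change was -0.02 (SE 0.10, limma adjusted p = 0.957). Its partner Hspb8 was at 101, 89.8, 142 and 135 FPKM in LacZ 1 to 4 and at 129, 112, 128 and 117 FPKM in HectD3 1 to 4, and its log2 fold change was 0.08 (SE 0.14, limma adjusted p = 0.881). The ratio of Bag3 to Hspb8 was therefore highest in LacZ 1 at 1.16 and LacZ 2 at 1.05, and between 0.621 and 0.938 in the other 6 libraries.

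The comparison of the viruses asks whether overexpression of HectD3 alters the message of these chaperones in NRVCMs. With limma, 0 of the 10 members passed an adjusted p of 0.05, a threshold that 0.00796% of all tested genes passed, and 0 passed an unadjusted p of 0.05, which 7.15% of all tested genes did. Ordinary least squares, with the sum of each library's nonzero log2 values below their upper quartile as a covariate, called 0 of all tested genes at the adjusted threshold, and at the unadjusted one it called 0 members and 10.7% of all tested genes. The mean was higher with HectD3 on the log2 scale in 9 of the 10 members, where 44.5% of all tested genes were higher, and the members had a median log2 difference of 0.14 against -0.02 over all tested genes. The count was 7 of 10 after rescaling to TPM, where 34.3% of all tested genes were higher. It was 10 of 10 by median ratios, where 49.8% were. By quantiles it was 7 of 10 beside 52.8% of all tested genes, and by ordinary least squares with that covariate 5 of 10 beside 56.0%. The sizes were small, between -0.02 for Bag3 and 0.23 for Hspb6. Without LacZ 1, LacZ 2 and HectD3 4, which was tried after the data had been looked at, 5 of the 10 had a higher mean with HectD3, beside 56.2% of all tested genes, and the median was -0.01.

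The intervals give the range of folds that these libraries leave possible. The 95% interval of the fold ran from 0.971 to 1.19 for Hsp90ab1, from 0.884 to 1.17 for Hspa4 and from 0.839 to 1.15 for Bag3. For Cryab it ran from 0.868 to 1.54 and for Hspb6 from 0.839 to 1.64. A p above the threshold does not show that the levels were equal.

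**Figure D2:**
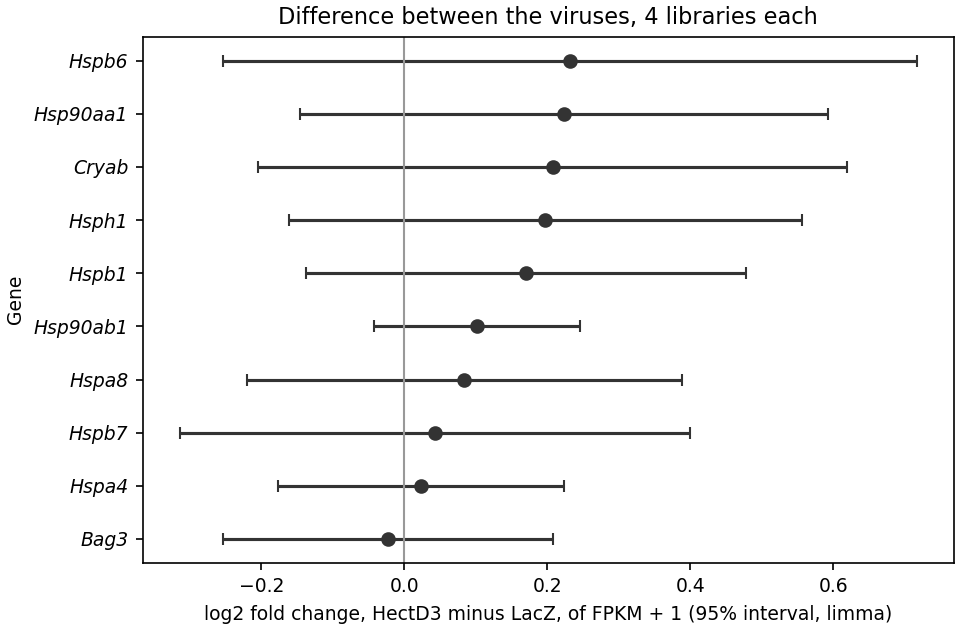
Log2 fold change of FPKM + 1 between 4 HectD3 and 4 LacZ libraries (horizontal axis) for each of the 10 genes, as a point with its 95% interval from limma. Every interval includes 0, and the widest is that of Hspb6, from -0.25 to 0.72.

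In 8 of the 10 members the 3 lowest libraries were LacZ 1, LacZ 2 and HectD3 4, a set that held the 3 lowest places in 9.26% of all tested genes. In several members some libraries of 1 virus differed more from each other than the group means did. LacZ 3 held 1.70 times the Cryab of LacZ 1, 1.67 times the Hspb6, 1.60 times the Hsph1 and 1.57 times the Hsp90aa1. The ratio of the group means, HectD3 over LacZ, was 1.13, 1.16, 1.14 and 1.15 for the same genes. These are unlike measures, since LacZ 1 and LacZ 3 lay at or near the ends of the LacZ range. The SD within the groups on the log2 scale was 0.30, 0.37, 0.26 and 0.27 for these genes, beside log2 fold changes of 0.21, 0.23, 0.20 and 0.22. Of the 5 members whose promoter stretches are printed above, Hspa8, Hsph1, Hspb1 and Hspb6 had this order of libraries and Bag3 did not, and of the 3 with no pair of units, Hspb7 and Hspa4 had it and Hsp90ab1 did not. Since these members also count among the genes that define the first principal component, their order is a description and no test of it was made.

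**Figure D3:**
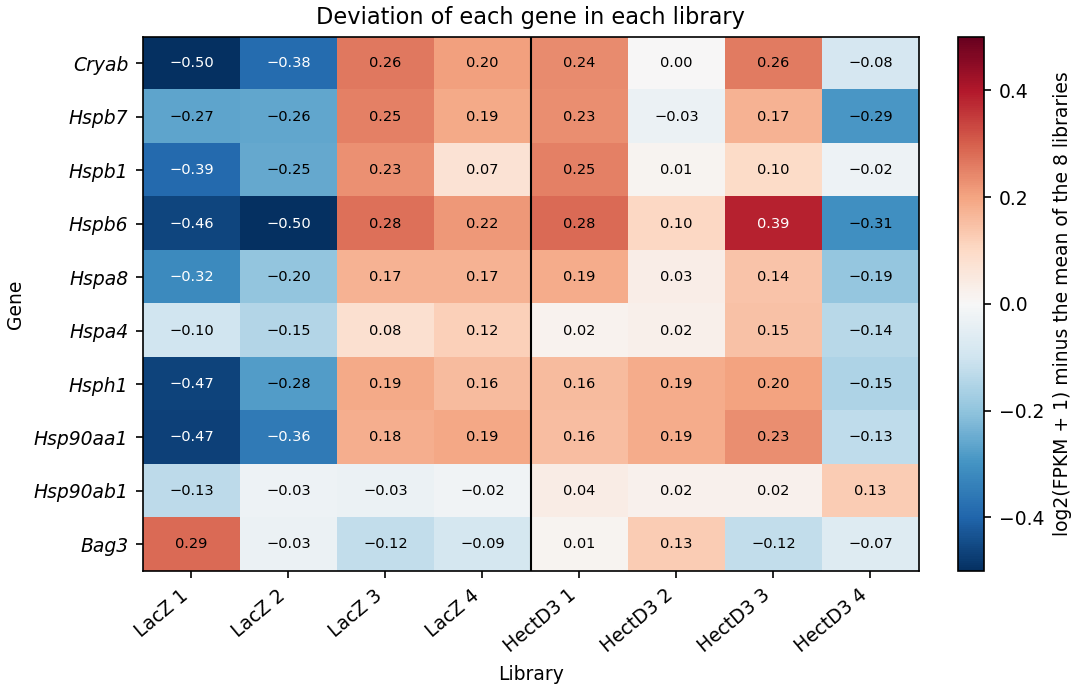
Deviation of log2(FPKM + 1) from the mean of the 8 libraries for each gene (rows) and library (columns), with LacZ libraries to the left of the line and HectD3 libraries to the right. LacZ 1 runs from -0.50 for Cryab to 0.29 for Bag3, and HectD3 4 runs from -0.31 for Hspb6 to 0.13 for Hsp90ab1.

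Cardiomyocyte markers were divided over these libraries. Of the 12 on the list, 5 had LacZ 1, LacZ 2 and HectD3 4 as their 3 lowest libraries and 2, Tnni3 and Pln, had them as their 3 highest. Of the 12567 tested genes, 1164 had these libraries as their 3 lowest and 2707 had them as their 3 highest. The 12 cardiomyocyte markers summed to 15654 and 14790.1 FPKM in LacZ 1 and LacZ 2, to 17158 FPKM in HectD3 4, and to between 19684 and 22841 FPKM in the other 5, and the summed FPKM of the 10 members was between 21.5% and 24.5% of that sum in every library. The marker sum leaned on Actc1, the cardiac actin, which, like the other markers named here, was chosen after its values were seen and ran from 3149 to 9411 FPKM. Tnnt2 varied less, from 4787 to 5501 FPKM, and Tnni3, the adult troponin I, was highest in LacZ 1 at 1590 FPKM and lowest in LacZ 4 at 1133 FPKM. Markers of smooth muscle cells and pericytes, all 8 of which were in the table, had the library order of the members in their sum, at 1695 FPKM in LacZ 1, 2295 FPKM in LacZ 2 and 2019 FPKM in HectD3 4 and between 2712 and 3783 FPKM in the other 5, and 4 of the 8 had those libraries as their 3 lowest. That sum leaned on Acta2, at 865 to 2324 FPKM, and Tagln, at 633 to 1167 FPKM. Myh11, Pdgfrb and Rgs5 were instead highest in LacZ 2, at 34.8, 47.3 and 59.4 FPKM. Whether the makeup of the cultures had a part in the order of the libraries was not tested, and in bulk RNA fewer cells of a type cannot be told apart from less RNA per cell.

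The rest of the chaperone network was followed in 84 named genes outside the 10, of which 79 were in the table and all 79 were tested. With HectD3 57 had a higher and 22 a lower mean, a share of 72.2% higher against 44.5% of all tested genes, and the median log2 fold change was 0.09. At an unadjusted p of 0.05, 7 were higher and 0 were lower, where 2.87% of all tested genes were higher at that threshold, and 0 passed an adjusted p of 0.05 in limma. Of the 7, 1 passed after rescaling to TPM, with 1.37% of all tested genes higher at that threshold. With the replicate number as a block 2 of the 7 passed, although whether the numbers pair the libraries is not known. Without LacZ 1, LacZ 2 and HectD3 4 there were 7 past the unadjusted threshold in either direction, where 9.45% of all tested genes were, and of these Dnaja1, Dnajb1, Sugt1 and Pfdn5 belonged to the first 7.

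The 7 came from several arms of the network. Pfdn5, a subunit of prefoldin that passes actin and tubulin to the chaperonin, was at 142, 142, 148 and 134 FPKM in LacZ 1 to 4 and at 159.8, 154, 164 and 176 FPKM in HectD3 1 to 4, with no overlap of the groups. Its log2 fold change was 0.20 (SE 0.07, unadjusted p = 0.0139, limma adjusted p = 0.625), and it was the gene past the unadjusted threshold with TPM. Cct2, a subunit of that chaperonin, was at 151 to 165 FPKM with LacZ and 169 to 185 FPKM with HectD3. Sugt1, which assists HSP90, was at 38.9 to 46.5 FPKM with LacZ and at 46.7 to 59.0 FPKM with HectD3. In these 3 genes every HectD3 library lay above every LacZ library. The groups had no overlap, in either direction, in 6 of the 79 (7.59%) and in 5.25% of all tested genes. The 7 were picked by their p on these same values. The J-domain proteins Dnaja1 and Dnajb1, which start the cycle of HSP70, ran from 142 to 172 and from 24.4 to 33.3 FPKM with LacZ and from 167 to 200.3 and from 33.3 to 40.4 FPKM with HectD3.

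Heat shock factors were measured by Hsf1, Hsf2 and their inhibitor Hsbp1. Hsf1, the factor of the heat shock response, ran from 16.3 to 17.6 FPKM with LacZ and from 16.3 to 20.9 FPKM with HectD3 and did not pass an unadjusted p of 0.05 in limma. Hsf2 was at 31.0, 26.3, 28.0 and 30.6 FPKM in LacZ 1 to 4 and at 29.2, 38.2, 35.1 and 34.2 FPKM in HectD3 1 to 4. It was 1 of the 7 genes above, with an unadjusted p of 0.0468 and an adjusted p of 0.693 from limma, and HectD3 1 lay within the LacZ range. Hspa1a and Hspa1b, the HSP70 genes that stress induces and that are near-identical copies, summed to 7.79, 14.9, 25.9 and 25.6 FPKM in LacZ 1 to 4 and to 34.2, 32.1, 22.2 and 12.8 FPKM in HectD3 1 to 4. That sum was between 1.54% and 4.99% of Hspa8 in the same library, and the groups overlapped. Of 15 measured targets of Hsf1 outside the members, 11 had a higher and 4 a lower mean with HectD3, beside the 44.5% of all tested genes that were higher, and the median log2 difference was 0.11. Dnaja1 and Dnajb1 were the 2 higher at an unadjusted p of 0.05, beside 2.87% of all tested genes, and neither passed that threshold with TPM.

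The lists outside the members differed in their share of genes with a higher mean with HectD3, which was 44.5% over all tested genes. Of chaperonins and prefoldin 14 of 16 were higher, of HSP90 cochaperones 14 of 20 and of J-domain proteins 11 of 17. Of small heat shock proteins 3 of 3 were higher, as were 3 of 3 heat shock factors. The HSP70 family was even, with 5 of 10 higher and 5 lower and a median log2 fold change of 0.02, and 0 past an unadjusted p of 0.05 in limma. Its most abundant gene, Hspa9 of the mitochondrial matrix, ran from 173 to 183 FPKM with LacZ and from 162 to 188 FPKM with HectD3. HSP70 cochaperones had 5 of 8 higher and 0 past that threshold, with Stub1, a ubiquitin ligase that marks the clients of HSP70, at 118 to 123 FPKM with LacZ and 119 to 127 FPKM with HectD3. Of 8 measured partners and clients of the members at the Z-disc and beyond, 6 had a higher mean, and Nebl, which encodes nebulette, was lower at an unadjusted p of 0.0399 (adjusted p = 0.687 from limma), at 40.3 to 52.9 FPKM with LacZ and 25.7 to 46.3 FPKM with HectD3. With its most abundant transcript alone the log2 fold change of Nebl was -0.12 (unadjusted p = 0.707 from limma) in place of -0.41. The order of the libraries seen in the members went further in 2 genes named after their values were seen. Hspb3, a small heat shock protein of muscle, was at 97.8, 131, 326 and 325 FPKM in LacZ 1 to 4 and at 348, 296, 367 and 165 FPKM in HectD3 1 to 4. Dnajb5, a J-domain protein, was at 12.5, 15.0, 58.8 and 62.7 FPKM in LacZ 1 to 4 and at 62.4, 71.2, 61.1 and 28.3 FPKM in HectD3 1 to 4. In the whole network outside the members, 23 of 79 genes had their 3 lowest values in LacZ 1, LacZ 2 and HectD3 4, beside 9.26% of all tested genes.

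**Figure D4:**
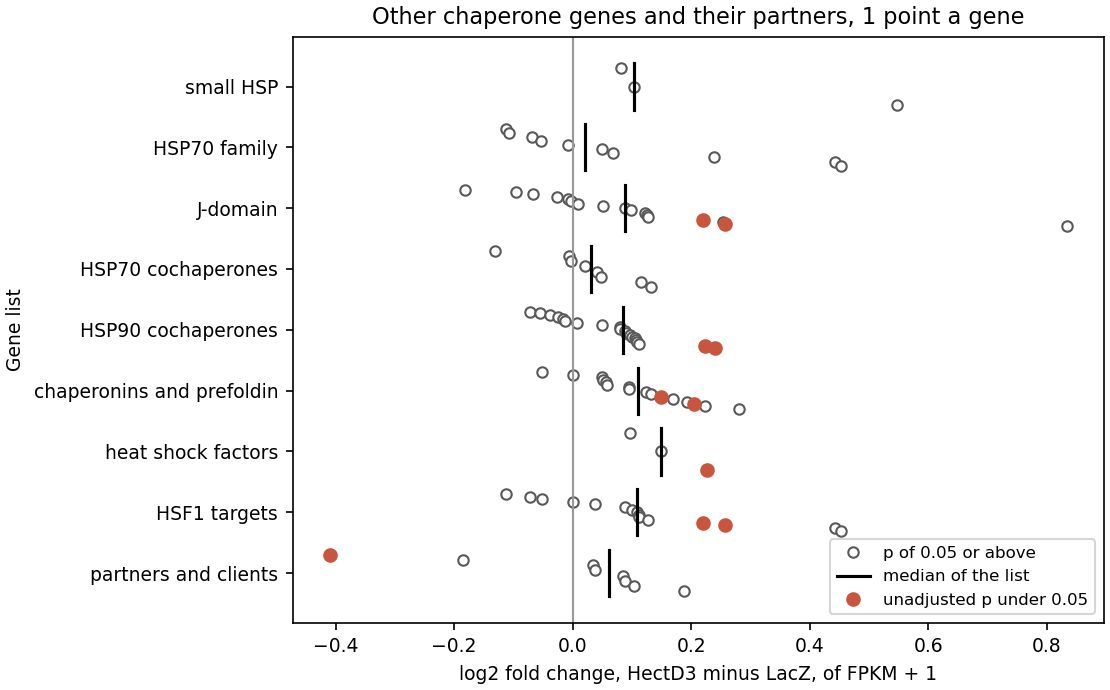
Log2 fold change of FPKM + 1, HectD3 minus LacZ (horizontal axis), of the other chaperone genes and of partners by list (rows), 1 point a gene and with some genes in 2 lists. Filled points passed an unadjusted p of 0.05, lines mark list medians, which lie between 0.02 for the HSP70 family and 0.15 for heat shock factors, and Dnajb5 is the point farthest to the right at 0.83.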

How the data were processed

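RNA-seq was measured in 4 LacZ and 4 HectD3 libraries of NRVCMs, prepared by poly(A) selection with a stranded kit and matched to groups by their titles. The authors used cutadapt for trimming, HISAT2 for alignment and StringTie for assembly, and deposited FPKM from Ballgown for 15976 protein-coding transcripts. Versions of these 4 tools, the genome build and the annotation are not stated in the sources read, and coordinates are those of the table unless GRCr8 is named. FPKM was summed by gene symbol. Genes averaging 0.5 FPKM or more were fitted as log2(FPKM + 1) with limma 3.58.1 (trend, two-sided, R 4.3.3) and Benjamini-Hochberg adjustment over 12567 genes, a scale that understates changes of low values. The fit was tried on simulated data with independent noise for each gene. The simulated libraries had no shared difference, so that trial does not cover the order of libraries described above. Named genes were the members, Hectd3, genes fixed by name and, from each list, up to 2 each way with the smallest p under 0.05, or else the most abundant. Members, lists, tests and this rule were chosen with earlier results of these data known. Alternatives were other pseudocounts, filters, scalings, models, a replicate block and libraries left out. The values of 1 gene that is counted in the lists are not reported here.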

Additional observations from a re-analysis of the deposited data

Results flagged for a closer look

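Among 60 groups of 4 values, 3 held a library far from the other 3, and chance alone flags about 1 group in 20. All 3 were of members, which made up 20 of the groups. Hsp90ab1 was at 594 FPKM in LacZ 1, where the other LacZ libraries lay between 638 and 643 FPKM. It was at 711 FPKM in HectD3 4, where the other HectD3 libraries lay between 659.8 and 667 FPKM. Hsph1 was at 28.8 FPKM in HectD3 4, where the other HectD3 libraries lay between 36.0 and 37.2 FPKM.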

How the results depend on the processing

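In the 22 alternatives, of which the one without LacZ 1, LacZ 2 and HectD3 4 was chosen after seeing the data, 0 of the 10 members passed an adjusted or an unadjusted p of 0.05, and the lowest adjusted p of a member was 0.475. Some values changed sign, and the cause was not tested. They were not only values close to 0. Hspb6, Cryab and Hspb1, at 0.23, 0.21 and 0.17 in the main fit, each fell below 0 in at least 1 alternative. TPM moved the median of all tested genes from -0.02 to -0.07, and quantile normalization moved it to 0.01. With TPM the log2 fold change of Hspb7 was at -0.0061, Hspa4 at -0.026 and Stub1 at -0.0071, and with quantile normalization that of Hspb7 was at -0.044, Hspa4 at -0.029 and Stub1 at -0.018. With median-ratio scaling Bag3 was at 0.0023. With library weights Hspb7 was at -0.096, Cryab at -0.036, Hspa8 at -0.051, Hspa4 at -0.045, Bag3 at 0.094, Hspb8 at -0.13 and Hspb2 at -0.096. By ordinary least squares with the summed log2 values of each library below their upper quartile as a covariate (the ordinary linear model), Hspb6 was at -0.038, Hspb7 at -0.15, Cryab at -0.031, Hspa8 at -0.078, Hspa4 at -0.060, Bag3 at 0.072, Hspb8 at -0.084 and Hspb2 at -0.073, and the adjusted p of Hectd3 was 0.218. Without LacZ 1, LacZ 2 and HectD3 4, Hspb1 was at -0.029, Hspb7 at -0.094, Cryab at -0.068, Hspa8 at -0.053, Hspa4 at -0.037, Bag3 at 0.11, Hspb8 at -0.17 and Hspb2 at -0.13. With 1 library left out at a time, the log2 fold change ran from -0.038 to 0.15 for Hspb7, from -0.0080 to 0.16 for Hspa8, from -0.022 to 0.073 for Hspa4, from -0.070 to 0.068 for Bag3, from -0.036 to 0.18 for Hspb8, from -0.019 to 0.20 for Hspb2, from -0.011 to 0.16 for transcript Hspa8-202 and from -0.095 to 0.053 for transcript Hsp90ab1-202. The number of members with no overlap of the groups was 0 with TPM, 0 with median-ratio scaling, 0 with quantile normalization and 0 with the most abundant transcript only. In place of 7, the number of other chaperones past an unadjusted p of 0.05 was 1 with TPM, 4 with quantile normalization and 3 with limma without trend, all from the first 7. With 1 library left out it was 3 to 6, of which 3 or 4 were from the first 7, while between 4.55% and 10.4% of all tested genes passed. It was 3 without LacZ 2 or without HectD3 1 and 6 without LacZ 3 or without LacZ 4. For Nebl the unadjusted p was 0.0750 with the replicate block and 0.188 by ordinary least squares with the covariate, and with 1 library left out it ran from 0.00707 to 0.108.

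Libraries with the same replicate number did not deviate together, with correlations of -0.37, -0.01, 0.34 and -0.61, so the numbers were not taken to pair them. The correlations followed the split of LacZ 1, LacZ 2 and HectD3 4 from the other libraries. HectD3 4 was at 0.54 with LacZ 1 and with LacZ 2, at -0.53 with LacZ 3 and at -0.61 with LacZ 4. They therefore cannot show whether libraries of the same number shared an isolation. With a replicate block 2 of the other chaperones passed an unadjusted p of 0.05, as did 617 of all tested genes in place of 899, and 0 members did. FPKM keeps no depth, so counting error could not be given for low genes such as Hspa1a.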
